A study of Mus musculus with 4 samples.

Results

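Mitochondrial ribosomal proteins were followed across 4 RNA-seq libraries of mouse spleen cells at day 5, 2 with NECA and 2 with DMSO. The genes were taken by name alone, as every symbol made of Mrpl or Mrps, a number and at most 1 further letter. This gave 78 of the 54532 genes in the deposited tables, 49 with a large subunit name (Mrpl) and 29 with a small subunit name (Mrps). Another 5 symbols with the same start belong to annotated pseudogenes and were left out. All 4 libraries came from polymorphonuclear myeloid-derived suppressor cells (PMN-MDSC, immature neutrophil-like cells that can damp T cell responses) purified from the spleen of newborn C57BL/6 mice. NECA is a synthetic agonist of the adenosine receptors and DMSO its solvent, and the comparison asks what the agonist changed. Whether the replicates of a group were separate pups, pools or cultures is not given in the labels, so p-values measure the spread between these libraries only, which may be technical.

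The mitochondrial ribosome translates the few messages of the mitochondrial genome, all of which encode subunits of the respiratory chain and ATP synthase. Its RNAs are copied from mitochondrial DNA, whereas its proteins are encoded in the nucleus, made in the cytosol and imported. Some of these proteins descend from bacterial ribosomal proteins and others exist only in mitochondrial ribosomes. Neutrophils hold few mitochondria and draw mainly on glycolysis, and the organelle is more active in their dividing precursors.

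Depth was 15864120 to 18712625 counts per library. Levels are given as counts scaled to library size (CPM) where a gene is compared between libraries. All 12 neutrophil markers checked for the labelled cell type were abundant enough to test. Summed, they held 136980 and 137900 CPM with NECA, against 123120 and 128670 CPM with DMSO. Of the 12, 2 were higher (Mmp8 and Mmp9, edgeR's adjusted p = 0.0254 and 0.0126), beside 0.352% of all genes tested. All 12 lay above 0, and 10 had an unadjusted p under 0.05 by edgeR (15.7% of all genes tested had one). Markers of macrophages summed to 299 and 243 CPM with NECA, against 652 and 572 CPM with DMSO. By edgeR's test 11 of 12 were lower, beside 0.978% of all genes tested. Markers of B cells summed to 78.8 and 13.8 CPM with NECA, against 147 and 154 CPM with DMSO, and 1 of the 9 tested was lower (Blnk). All 9 lay below 0, and 8 had an unadjusted p under 0.05 by edgeR. Markers of red cells summed to 360 and 56.7 CPM with NECA, against 1193 and 509 CPM with DMSO, with 0 of 9 called (all 9 at an unadjusted p under 0.05). Markers of T and NK cells summed to 18.8 and 19.2 CPM with NECA, against 26.2 and 32.9 CPM with DMSO. Of the 10 listed, only 6 were abundant enough to test, and 0 were called. In all 6 both NECA libraries lay below both DMSO libraries, which held for 24.3% of all genes tested. Markers of early granulocytes summed to 1725 and 1620 CPM with NECA, against 1612 and 1640 CPM with DMSO, with 0 of 9 called and 7 of 9 below 0. The 12 markers of dividing cells had a median log2 fold change of 0.02, and 0 of them were called. In bulk RNA, fewer cells of a type and less RNA per cell cannot be told apart.

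The proteins of the mitochondrial ribosome were expressed at low to moderate levels in these cells. Summed over the 78 genes, the level was 936 and 951 CPM with NECA, against 973 and 1012 CPM with DMSO, and rested on 14716 to 19049 counts per library. To compare genes with each other, the deposited FPKM values were used, which divide the counts by gene length. Mean FPKM was at least 10 for 16 genes (12 large, 4 small) and under 1 for 11 genes (4 large, 7 small). The median was 5.00 FPKM over the large subunit genes and 2.29 FPKM over the small subunit genes. For 72 of the 77 genes with a value above 0, the length behind the FPKM equalled the summed exons of the GENCODE M21 gene on GRCm38. It was shorter for 5 genes on the same scale, among them Mrpl43, at 0.798 of the summed exons.

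**Figure D1:**
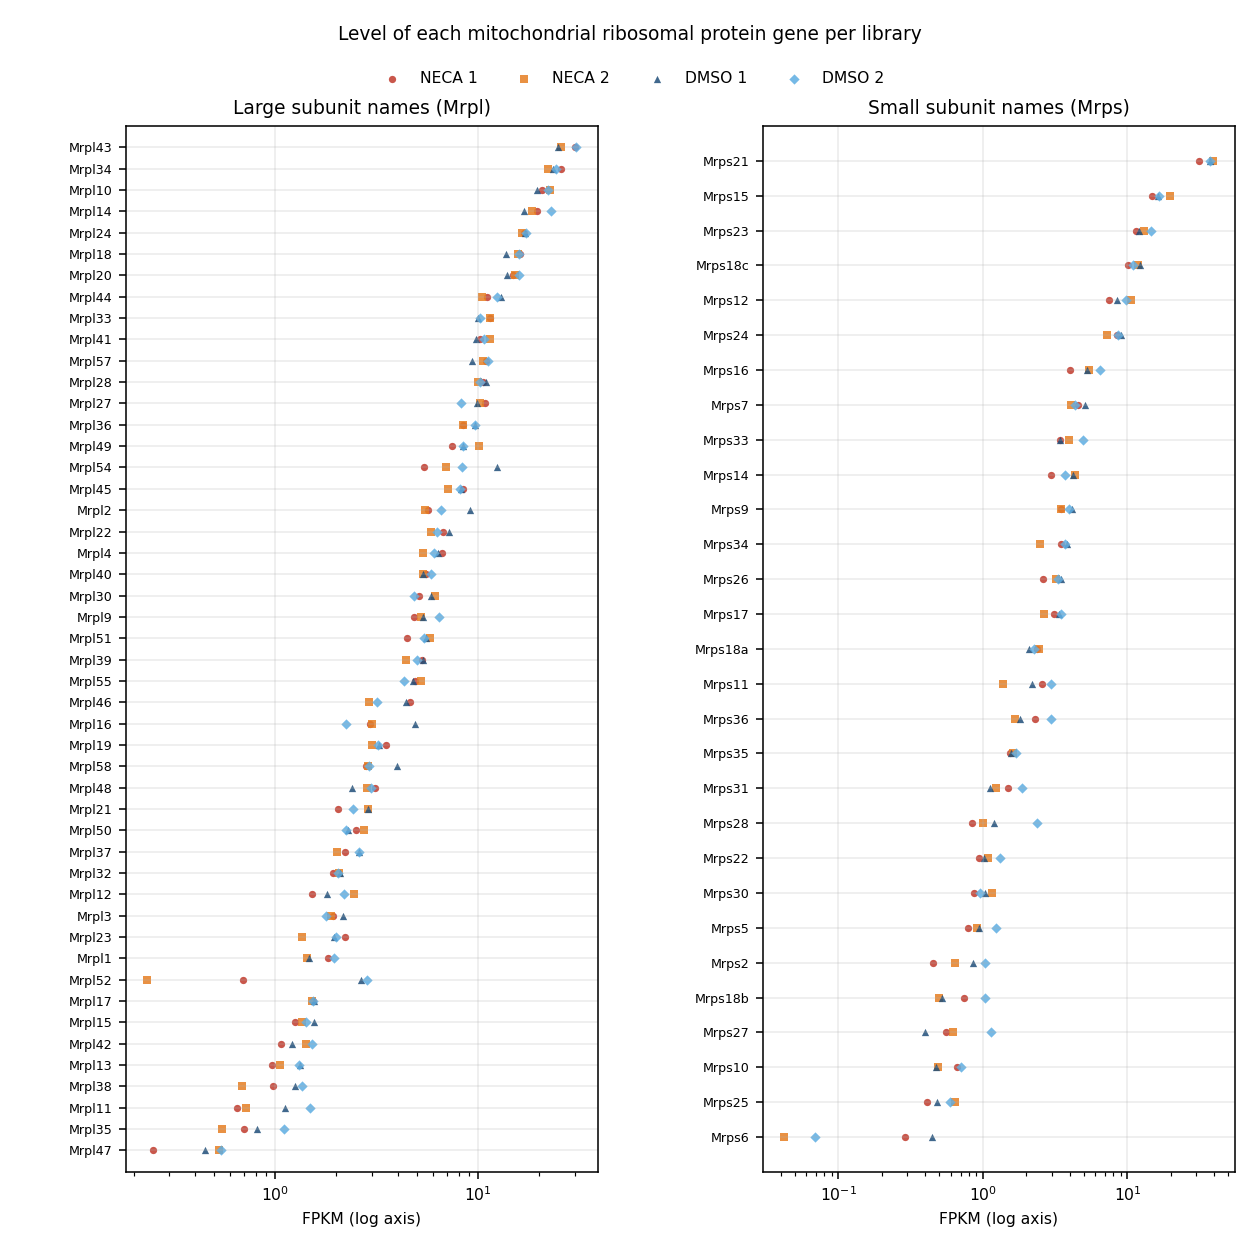
FPKM of each gene (log axis) in the 2 NECA and 2 DMSO libraries, ordered by mean level, for large subunit names on the left and small subunit names on the right. Mrps21 and Mrpl43 stand at the top, with means of 36.2 and 27.8 FPKM; Mrpl52 is the gene whose libraries lie farthest apart in the large subunit, and Mrpl53, listed at 0 in all libraries, is not drawn.

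Among large subunit genes the highest deposited FPKM belonged to Mrpl43, a protein found only in mitochondrial ribosomes. Its rank rests on the shorter length, since on its summed exons it would average 22.1 FPKM, below Mrpl34 at 23.8 FPKM. Its exons overlap those of Twnk on the other strand, so its counts are uncertain. It stood at 29.9 and 25.7 FPKM with NECA, against 24.9 and 30.5 FPKM with DMSO. Mrpl34, homologue of a small protein of the bacterial large subunit, stood at 25.6 and 21.99 FPKM with NECA, against 23.4 and 24.1 FPKM with DMSO. Mrpl10, which carries the flexible stalk that recruits translation factors, stood at 20.7 and 22.6 FPKM with NECA, against 19.6 and 21.997 FPKM with DMSO. For all 3 genes the libraries of the groups overlapped.

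Mrpl14, a protein of the face turned to the small subunit, averaged 19.4 FPKM over the 4 libraries, and Mrpl24, homologue of a bacterial protein that starts assembly, averaged 16.9 FPKM. At the other end stood Mrpl47, near the exit of the peptide tunnel (0.441 FPKM), Mrpl35 (0.790 FPKM) and Mrpl53. Mrpl53 had 0 counts in every library, where a count of 0 allows up to 3 counts, or 0.157 to 0.194 CPM; most of its exonic bases are shared on the same strand with the annotated gene Gm42688. Mrpl12, the stalk protein held by Mrpl10, averaged only 1.99 FPKM. Mrpl10 averaged 21.2 FPKM, far above it, although exons of both overlap an annotated gene on the opposite strand, which makes their counts uncertain.

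The small subunit looked more uneven. Its top 5 of 29 genes held 60.2% of its summed FPKM, against 33.0% for the top 5 of 49 in the large subunit. These shares are not like for like, since 5 genes are a larger part of the shorter list. Mrps21 was the highest of all 78 genes, at 31.1 and 39.3 FPKM with NECA, against 37.4 and 36.9 FPKM with DMSO. Mrps15 followed, at 14.8 and 19.6 FPKM with NECA, against 16.3 and 16.5 FPKM with DMSO. Both are homologues of bacterial small subunit proteins, and in both the DMSO libraries lay between the NECA libraries.

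Mrps23, found only in mitochondrial ribosomes, averaged 12.7 FPKM, Mrps18c 11.3 FPKM, and Mrps12, a protein of the decoding centre, 9.11 FPKM. The lowest were Mrps25 (0.532 FPKM), Mrps10 (0.582 FPKM) and Mrps6 (0.210 FPKM), the first 2 with counts uncertain beside near-identical annotated copies. Mrps6 had 8 and 1 counts with NECA, against 13 and 2 counts with DMSO, and was too low to test. The highest and lowest small subunit genes were 172-fold apart in mean FPKM, and those of the large subunit, among genes above 0, were 63.0-fold apart.

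The stretch before the start of each gene was searched for the letters bound by 3 factors known to act on genes of mitochondrial biogenesis. RefSeq promoter sequences (GRCm38.p6) matched 69 of the 78 genes by symbol. The 250 bases before the start were searched on both strands for GCGCA and GCGC with any 1 base between them (the nuclear respiratory factor NRF1), CCGGAAG (the ETS family, to which Gabpa belongs) and AAGATGGCG (Yy1), none of which contains another. The NRF1 letters were found in 10 of 69 members (14.5%), the ETS letters in 16 (23.2%) and the Yy1 letters in 2 (2.90%). Of the 9228 promoters of genes tested here, 8.80% held the NRF1 letters, 14.9% the ETS letters and 1.25% the Yy1 letters. Over all 27025 promoters the shares were 3.87%, 7.07% and 0.592%.

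Of these promoters 4 are printed, 5′ to 3′ on the strand of the gene, with the matches in capitals and the last base next to the RefSeq start. Mrpl52, the gene called lower, is shown for its ETS letters in reverse (chr14:54426659-54426908, plus strand). Mrpl45, whose protein holds the ribosome to the inner membrane, is the only member with a pair of NRF1 matches (chr11:97315466-97315715, plus strand). Mrps21, the most abundant member per length, carries the NRF1 letters in reverse (chr3:95871515-95871764, minus strand). Mrps11 shows the Yy1 letters in reverse in the locus that it shares with Mrpl46 (chr7:78782881-78783130, plus strand).
Mrpl52: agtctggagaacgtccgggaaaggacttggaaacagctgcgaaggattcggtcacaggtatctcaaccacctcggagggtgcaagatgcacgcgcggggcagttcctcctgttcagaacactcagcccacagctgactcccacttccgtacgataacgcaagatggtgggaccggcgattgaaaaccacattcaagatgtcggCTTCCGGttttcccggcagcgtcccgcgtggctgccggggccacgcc
Mrpl45: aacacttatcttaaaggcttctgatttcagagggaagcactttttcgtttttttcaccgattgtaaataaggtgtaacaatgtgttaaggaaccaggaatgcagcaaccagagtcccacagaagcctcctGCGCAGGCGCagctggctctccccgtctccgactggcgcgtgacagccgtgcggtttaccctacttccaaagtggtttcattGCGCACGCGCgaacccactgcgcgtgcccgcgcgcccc
Mrps21: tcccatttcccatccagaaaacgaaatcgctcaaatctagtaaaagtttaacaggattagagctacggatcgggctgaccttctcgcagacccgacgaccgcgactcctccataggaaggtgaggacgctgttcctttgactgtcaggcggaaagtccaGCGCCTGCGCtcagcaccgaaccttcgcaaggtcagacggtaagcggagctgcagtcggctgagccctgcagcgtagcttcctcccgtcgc
Mrps11: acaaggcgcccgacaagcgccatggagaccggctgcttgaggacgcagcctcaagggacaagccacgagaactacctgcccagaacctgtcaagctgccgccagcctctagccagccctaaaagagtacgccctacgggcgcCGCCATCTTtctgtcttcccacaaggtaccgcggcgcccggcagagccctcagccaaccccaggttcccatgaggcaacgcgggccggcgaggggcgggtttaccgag

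Very few of these genes passed the test of NECA against DMSO. With 2 libraries in each group, a gene that did not pass may still have changed. By edgeR's quasi-likelihood fit over 13083 genes (adjusted p under 0.05), 0 of the 76 genes tested were higher and 1, Mrpl52, was lower. Over all genes tested, 0.352% were higher and 0.978% were lower (1.33% either way), so 1 lower gene of 76 (1.32%) is near the background. At an unadjusted p under 0.05 there were 5 genes, 4 lower and 1 higher, all of the large subunit, that is 6.58% of the members tested, beside 15.7% of all genes tested. DESeq2 also called 0 higher and 1 lower, beside 150 higher and 131 lower over the 22344 genes it fitted. Limma on log2(FPKM + 0.1) called 0 of the members, but over all 13083 genes it called only 1 higher and 0 lower. For 42 of the 76 genes (55.3%) the 95% interval of the fold change lay within 1.5-fold in either direction, against 53.3% of all genes tested.

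**Figure D2:**
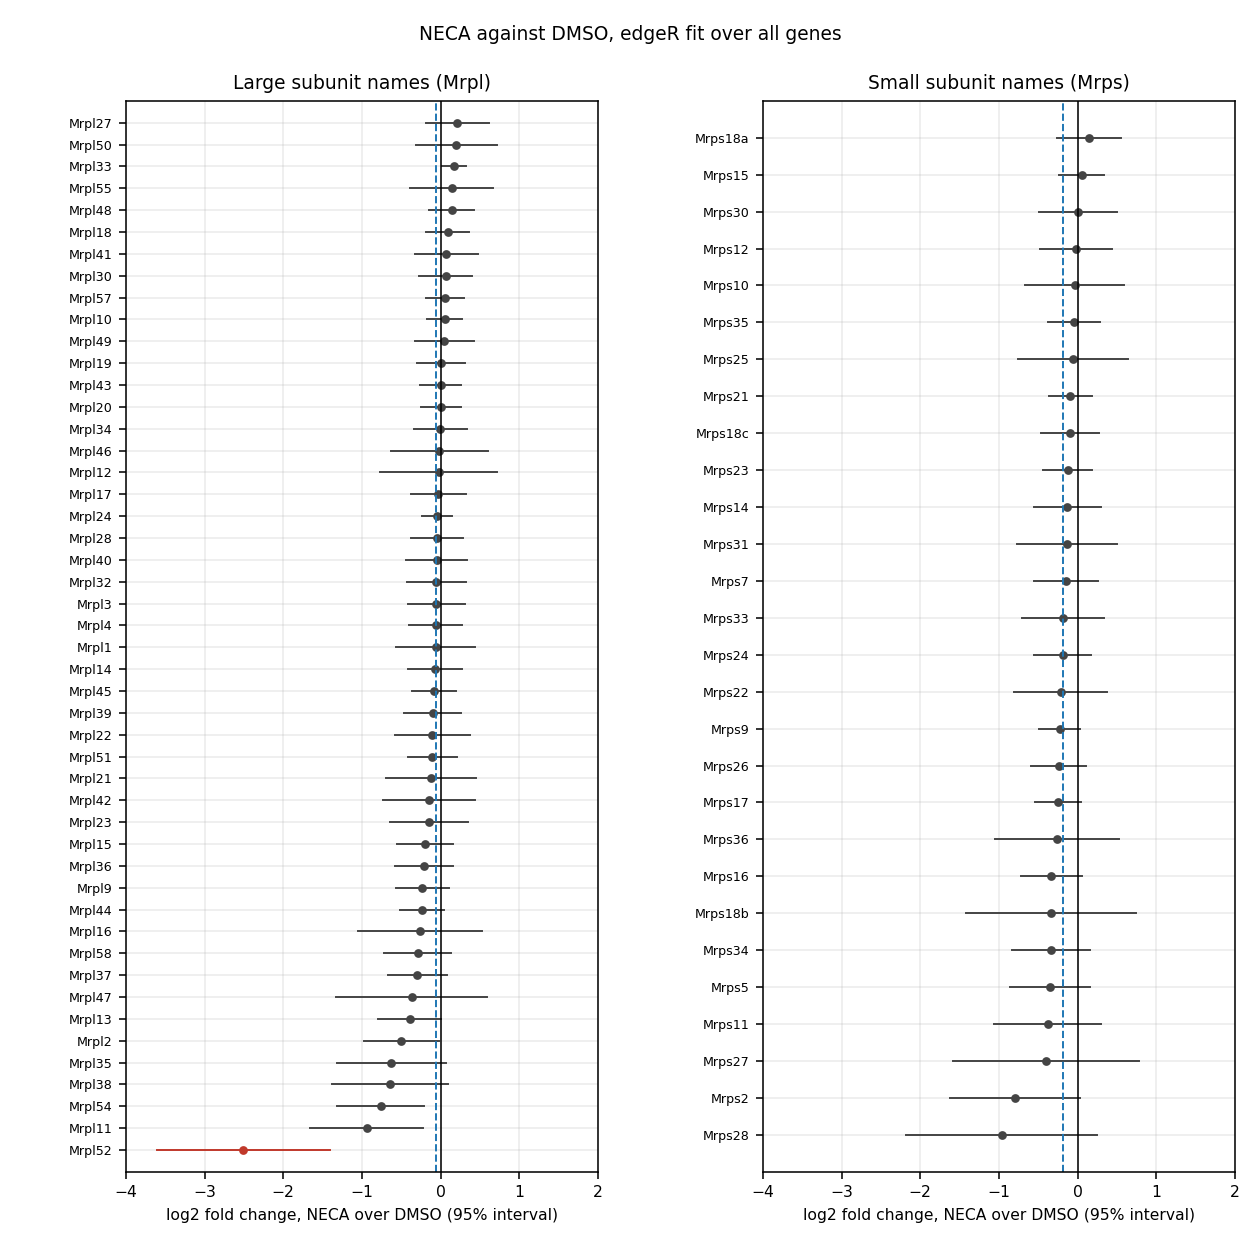
Log2 fold change of NECA over DMSO with its 95% interval for the 48 large subunit and 28 small subunit genes tested, ordered by value; red marks adjusted p under 0.05 and the dashed line the median of the subunit. Mrpl52 (-2.51) is the only gene in red, and most other intervals include 0.

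Mrpl52, a protein that only mitochondrial ribosomes have, had 14 and 4 counts with NECA, against 56 and 59 counts with DMSO. This was 0.769 and 0.258 CPM with NECA, against 2.93 and 3.13 CPM with DMSO, or 0.514 ± 0.361 and 3.03 ± 0.147 CPM (SD, n = 2 each). Both NECA libraries lay below both DMSO libraries, and the NECA libraries differed from each other. It fell by 2.51 on the log2 scale (SE 0.50, 95% interval -3.61 to -1.41, edgeR's adjusted p = 0.0352). It no longer passed with DMSO replicate 1 left out (edgeR's adjusted p = 0.0765), with DMSO replicate 2 left out (adjusted p = 0.0889) or by limma on log2(FPKM + 0.1) (adjusted p = 0.225). Its log2 value was -3.51 with NECA replicate 1 left out and -1.96 with NECA replicate 2 left out.

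The gene (ENSMUSG00000010406) lies on chromosome 14, 54426909 to 54429756 on the plus strand of GRCm38, shares exons with no annotated gene and has no near-identical annotated copy. Downstream on the same strand follows Mmp14, a membrane-bound matrix protease, after 1855 bases, with 7 and 7 counts with NECA, against 13 and 5 counts with DMSO, too few to test. The next protein-coding gene, Lrp10, had a log2 fold change of 0.10 (adjusted p = 0.496). Marker sums of macrophages, B cells and red cells were lower with NECA as well, at the levels given above, and their part in the value of Mrpl52 was not tested.

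As a group, the large subunit genes stood close to the rest of the genome. Their log2 fold changes had a median of -0.06, with quartiles of -0.23 and 0.0042, beside a median of -0.0065 over all genes tested. Of the 48 tested, 34 lay below 0 and 14 above, and 51.4% of all genes tested lay below 0. Summed, they held 681 and 671 CPM with NECA, against 687 and 705 CPM with DMSO, that is 676 ± 7.35 and 696 ± 12.5 CPM (SD, n = 2 each). Both NECA sums were below both DMSO sums, by little. Without NECA replicate 2 the median was -0.02, that of all genes tested.

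The 30 homologues of bacterial proteins had a median of -0.06 and the 18 tested proteins found only in mitochondria one of -0.09. In 15 of 48 genes both NECA libraries lay below both DMSO libraries, and in 4 both lay above. Over all genes tested these shares were 24.3% and 22.4%. The shares of the large subunit genes were 31.2% below and 8.33% above.

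After Mrpl52, the lowest value was that of Mrpl11, at the base of the stalk, with 1.87 and 2.07 CPM with NECA, against 3.24 and 4.30 CPM with DMSO (log2 fold change -0.94, SE 0.33, edgeR's adjusted p = 0.185). The groups did not overlap. Above a mean of 5 CPM, Mrpl54 and Mrpl2 came lowest in the large subunit. Mrpl54, a mitochondria-specific protein, had 4.45 and 5.69 CPM with NECA, against 10.2 and 6.85 CPM with DMSO. Its log2 fold change was -0.76 (SE 0.25, edgeR's adjusted p = 0.162), and without a filter on low counts it passed (adjusted p = 0.0403). Mrpl2, a core protein near the catalytic centre, had 6.59 and 6.40 CPM with NECA, against 10.7 and 7.70 CPM with DMSO (log2 fold change -0.50, adjusted p = 0.293).

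In both genes the groups did not overlap and DMSO replicate 1 was the highest library. Mrpl13 (-0.39, adjusted p = 0.32), Mrpl37 (-0.29, adjusted p = 0.449) and Mrpl58 (-0.29, adjusted p = 0.524) did not pass edgeR's test either. Mrpl58 encodes a hydrolase that frees the peptide from stalled ribosomes, and it stood at 9.34 and 9.50 CPM with NECA, against 13.3 and 9.72 CPM with DMSO.

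At the upper end stood Mrpl33, the member with the most reads. It had 83.8 and 83.9 CPM with NECA, against 73.2 and 75.3 CPM with DMSO. The groups did not overlap and the libraries within each lay close together. Its log2 fold change was 0.18 (SE 0.07, 95% interval 0.02 to 0.33), with an unadjusted p of 0.0264 and an adjusted p of 0.241 by edgeR, so it did not pass. Its annotated gene is long, 31596935 to 31664384 on chromosome 5, and shares 261 exonic bases with Gm43809 on the same strand, so its counts are uncertain.

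Mrpl27, next to the catalytic centre, had 10.7 and 10.0 CPM with NECA, against 9.72 and 8.13 CPM with DMSO (log2 fold change 0.21, adjusted p = 0.65), with an annotated near-identical copy. Values for Mrpl50 (0.20), Mrpl48 (0.14) and Mrpl18 (0.09) were smaller than or near their standard errors. Mrpl12, the stalk protein, had a value of -0.02 with a 95% interval of -0.77 to 0.72, too wide to tell a moderate change from none.

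The small subunit genes stood somewhat lower, a difference between subunits that was not tested. Their median log2 fold change was -0.19, with quartiles of -0.33 and -0.08, and 25 of the 28 tested lay below 0. None was called, 0 had an unadjusted p under 0.05 by edgeR (15.7% of all genes tested had one), and DESeq2 called 0. Summed, they held 254 and 280 CPM with NECA, against 286 and 307 CPM with DMSO, that is 267 ± 18.2 and 296 ± 14.8 CPM (SD, n = 2 each). The sums of the groups did not overlap, but NECA replicate 2 and DMSO replicate 1 were close.

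Library by library, the median small subunit gene stood at -0.21 and -0.13 with NECA, against -0.12 and 0.12 with DMSO, in log2(CPM + 0.1) relative to the DMSO mean. DMSO replicate 1 was therefore as low as NECA replicate 2. The 2 DMSO medians mirror each other by construction, since each gene is set against the mean of these libraries. Mpo, an early granulocyte marker that encodes myeloperoxidase, was highest in DMSO replicate 2. It had 6.15 and 3.49 CPM with NECA, against 6.79 and 15.4 CPM with DMSO (log2 fold change -1.19, edgeR's adjusted p = 0.121). Mpo was picked from the 9 early granulocyte markers after its values were seen, and its fold change was the lowest of them. Their sum was highest in NECA replicate 1 (1725 and 1620 CPM with NECA, against 1612 and 1640 CPM with DMSO). Of the 9 markers, 7 lay below 0 and 2 above. The part of early granulocytes in the small subunit median was not tested. The median large subunit gene stood at -0.02 and -0.10 with NECA, against 0.0002 and -0.0002 with DMSO. Without DMSO replicate 2 the small subunit median was -0.11 and 17 of 29 genes lay below 0, and without DMSO replicate 1 it was -0.27.

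**Figure D3:**
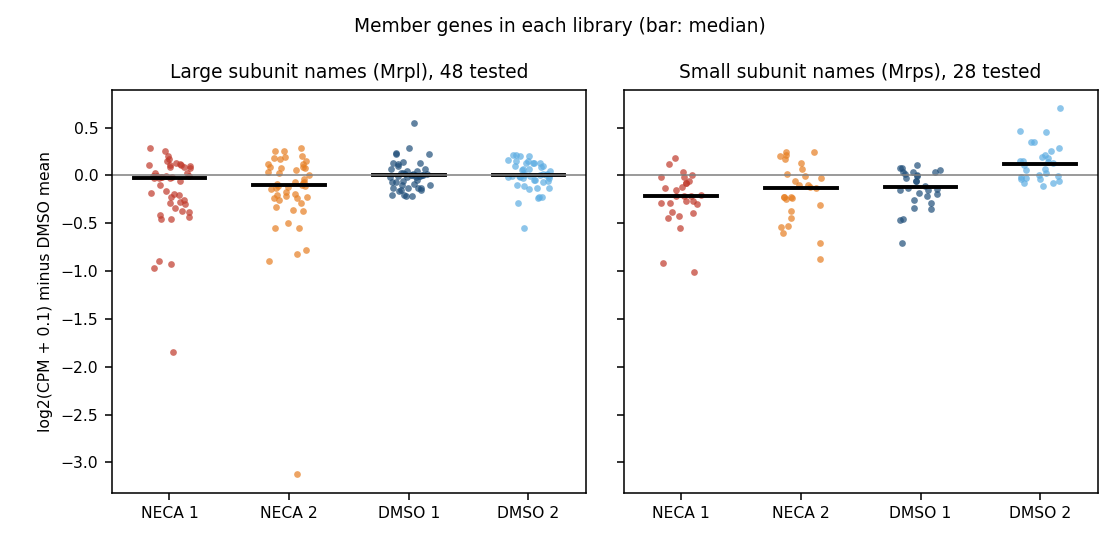
Log2(CPM + 0.1) of each tested gene relative to its DMSO mean, in the NECA and DMSO libraries, for large (left) and small (right) subunit names; black bars are medians. The small subunit medians are -0.21 and -0.13 with NECA, against -0.12 and 0.12 with DMSO, so NECA replicate 2 and DMSO replicate 1 share a level.

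In 8 of 28 small subunit genes both NECA libraries lay below both DMSO libraries (28.6%, beside 24.3% of all genes tested), and in 1 both lay above (3.57%, beside 22.4%). The 16 tested homologues of bacterial proteins, with Mrps18b counted among them, had a median of -0.21 and the 9 proteins found only in mitochondria one of -0.19. Counted from 5 CPM upwards, the lowest values were those of Mrps5, at the entrance of the message channel (-0.35, adjusted p = 0.522), Mrps34 (-0.34, adjusted p = 0.529) and Mrps16 (-0.33, adjusted p = 0.406), none of which passed edgeR's test. Mrps5 has an annotated near-identical copy and Mrps34 shares exons with Nme3 on the same strand. Among rarer genes, Mrps2 had 1.32 and 1.87 CPM with NECA, against 2.51 and 3.03 CPM with DMSO (log2 fold change -0.80, adjusted p = 0.335), and Mrps28 stood at -0.96 (adjusted p = 0.446).

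Mrps16 had 11.5 and 15.5 CPM with NECA, against 15.2 and 18.7 CPM with DMSO, so that NECA replicate 2 slightly exceeded DMSO replicate 1. Mrps17, an RNA-binding homologue of a bacterial protein, had 20.1 and 17.1 CPM with NECA, against 21.7 and 22.5 CPM with DMSO (log2 fold change -0.25, adjusted p = 0.4). Mrps26 had 11.3 and 13.8 CPM with NECA, against 15.2 and 14.4 CPM with DMSO (log2 fold change -0.24, adjusted p = 0.532). In these last 2 genes the groups did not overlap, yet the gap was no larger than the spread within a group.

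At 5 CPM or more, the highest values were those of Mrps18a (0.15), Mrps15 (0.05) and Mrps30 (0.01), and those of Mrps12 (-0.02) and Mrps35 (-0.05) came next. Mrps30 and Mrps18a carry a small subunit name, but their proteins sit in the large subunit. Mrps18a had 8.73 and 9.05 CPM with NECA, against 7.68 and 8.39 CPM with DMSO (log2 fold change 0.15, SE 0.19, edgeR's adjusted p = 0.785), and Mrps30 had 5.77 and 7.69 CPM with NECA, against 6.95 and 6.37 CPM with DMSO. Both of the large subunit proteins were among the 3 small subunit names above 0, with values below their standard errors (0.19 for Mrps18a, 0.23 for Mrps30). The sign of Mrps30 changed with library size alone.

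Mrps36 is named for the ribosome, but its product serves the oxoglutarate dehydrogenase complex. It had 2.91 and 2.13 CPM with NECA, against 2.30 and 3.77 CPM with DMSO (log2 fold change -0.26, adjusted p = 0.804), with counts uncertain beside annotated pseudogenes. Sorted by place in the ribosome, 24 of 25 small subunit genes lay below 0, with a median of -0.19, and 34 of 50 large subunit genes, with a median of -0.06. Of the 3 homologues of the same bacterial protein, Mrps18c was the most abundant, at 11.3 FPKM, and stood at -0.10 (adjusted p = 0.848), while Mrps18b averaged 0.699 FPKM and stood at -0.34 (adjusted p = 0.818, counts uncertain beside a near-identical copy) and at 0.23 without DMSO replicate 2.

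**Figure D4:**
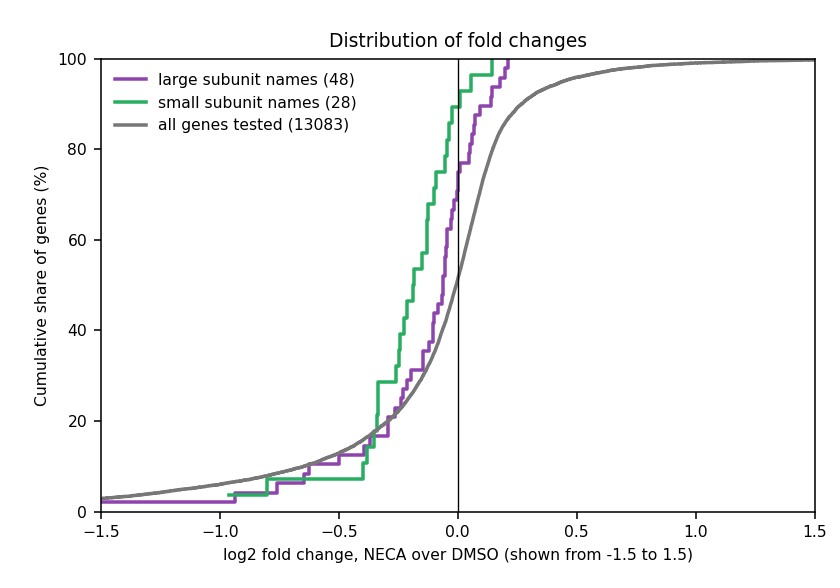
Cumulative share of genes by log2 fold change of NECA over DMSO, for 48 large subunit genes, 28 small subunit genes and all 13083 genes tested, between -1.5 and 1.5. The large subunit curve (median -0.06) runs nearer to that of all genes (median -0.0065) than the small subunit curve does (median -0.19); both subunit curves end near 0.2, while all genes reach past 1.

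The value of a gene went with its abundance. Across the 76 tested genes the log2 fold change and the mean log2 CPM were correlated (Pearson r = 0.53, Spearman rho = 0.50), a description across genes that share the same 4 libraries. The 19 genes with a mean under 5 CPM had a median of -0.34, and 18 of them lay below 0. The 36 genes with 5 to 15 CPM had a median of -0.10, and 30 of them lay below 0. The 21 genes with 15 CPM or more had one of -0.04, and 11 of them lay below 0.

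All tested genes showed the same order, with medians of -0.18, -0.07 and 0.03 in these 3 ranges, and 63.2%, 62.7% and 38.7% of them below 0. In each range the median of the members was below that of all genes. The standard error also shrank with abundance, with a median of 0.34 for the least abundant members and 0.13 for the most abundant. Exonic length and fold change had a Spearman rho of only -0.05 across the members.

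The genes are spread over 17 chromosomes, and 26 of the 78 have a protein-coding neighbour that starts close by on the opposite strand. Their starts lie within 1000 bases of each other, or overlap by at most 500. Among these pairs are Mrpl36 with Ndufs6, a subunit of respiratory complex I, Mrps12 with Sars2, the mitochondrial seryl-tRNA synthetase, and Mrpl49 with Fau, which encodes a protein of the cytosolic ribosome. Mrpl51 stands beside Ncapd2 and Mrpl57 beside Ska3, which both serve chromosomes in mitosis. Mrpl46 and Mrps11 start next to each other, so that 1 locus feeds both subunits.

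In 24 of these cases both genes were tested. The neighbours had a median log2 fold change of 0.0080, 0 of them were called and 11 lay below 0. Between member and neighbour the Spearman rho was -0.08 over these 24, which count Mrpl46 and Mrps11 from either side. Exons of 33 members overlap those of another annotated gene (28 on the opposite strand) and 10 members have a near-identical stretch of at least 200 bases in another annotated gene. Counts of these are uncertain, since the use of strand and of reads that match several genes is not given in the sources used here, while 40 members have neither.

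By subunit, the NRF1 letters in the promoter stood before 9 of 43 large subunit genes and 1 of 26 small subunit genes. Members with them had a median log2 fold change of -0.07 (10 tested) and members without them one of -0.12 (57 tested). For the ETS letters these medians were -0.10 (15 tested) and -0.11 (52 tested), and for the Yy1 letters -0.30 (2 tested) and -0.10 (65 tested). A match is a description of the sequence and not of binding.

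Few other genes of mitochondrial translation passed the test. Lists of the remaining mitoribosome proteins, assembly factors, translation factors, tRNA synthetases, enzymes of mitochondrial DNA transcription and copying, and regulators held 80 tested genes. Of these, 0 were higher (0.352% of all genes tested) and 2, Lars2 and Myc, were lower by edgeR's test (2.5%, beside 0.978% of all genes tested). Their median was -0.11, and 56 lay below 0 (70.0%, beside 51.4%). The RNAs of the ribosome, mt-Rnr1 of the small subunit and mt-Rnr2 of the large subunit, stood at 0.09 (adjusted p = 0.722) and 0.12 (adjusted p = 0.426). mt-Rnr2 had 373 and 397 CPM with NECA, against 331 and 378 CPM with DMSO, so the groups overlapped. How fully these libraries captured ribosomal RNA was not tested.

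**Figure D5:**
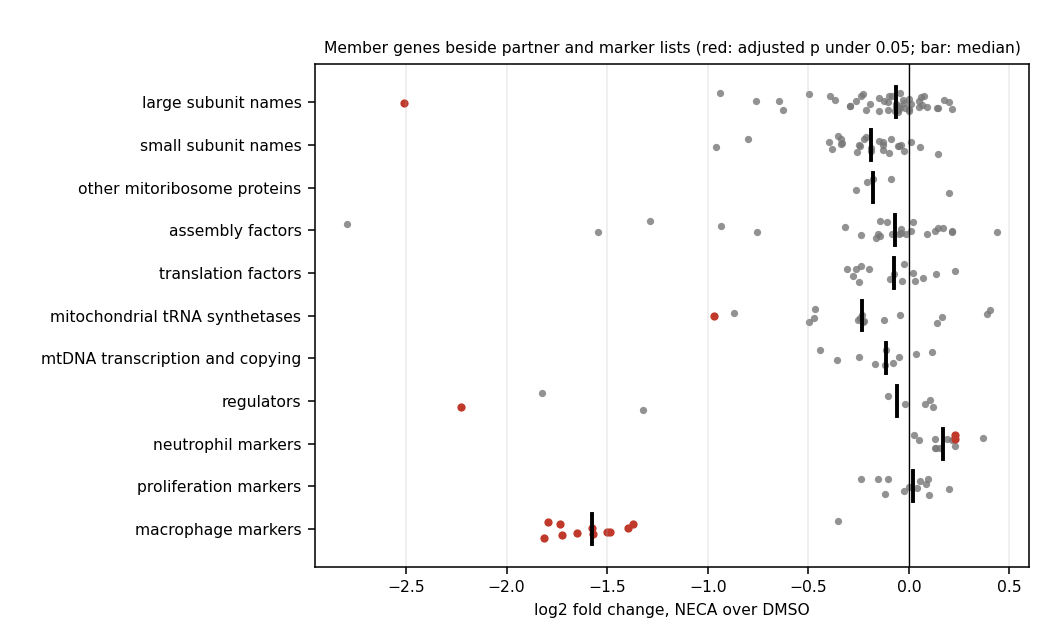
Log2 fold change of NECA over DMSO of each tested gene in the 2 subunits, 6 partner lists and 3 marker lists; red marks adjusted p under 0.05, bars are medians. The members and partners centre between -0.23 and -0.06, the neutrophil markers on 0.17 and the macrophage markers on -1.57.

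The 5 ribosomal proteins with other names had a median of -0.18, with 4 below 0 and 0 called. Dap3, a GTP-binding protein of the small subunit first found as a death-associated protein, had 37.0 and 36.7 CPM with NECA, against 44.5 and 44.0 CPM with DMSO. The groups did not overlap and each was tight, and its log2 fold change was -0.26 (SE 0.09, edgeR's adjusted p = 0.149), which did not pass. Exons of Dap3, Chchd1, Rcc1l, Guf1 and Polg overlap a gene on the opposite strand and those of Mettl17 one on the same strand, so their counts are uncertain. Chchd1, also of the small subunit, stood at -0.21 (adjusted p = 0.685).

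Of 26 assembly factors 0 were called, and the median was -0.07. The smallest p-values were those of Rcc1l, with 1 and 5 counts with NECA, against 15 and 34 counts with DMSO (adjusted p = 0.12), and of Mettl17, with 17 and 11 counts with NECA, against 36 and 41 counts with DMSO (adjusted p = 0.194). Of 15 translation factors 0 were called, and the median was -0.07. Tufm, the elongation factor that brings charged tRNA to the ribosome, had 19.2 and 16.5 CPM with NECA, against 19.02 and 23.6 CPM with DMSO (log2 fold change -0.25, adjusted p = 0.457, with a near-identical annotated copy), and Guf1, a back-translocating factor, stood at -0.26 (adjusted p = 0.6).

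Of the 16 tested mitochondrial tRNA synthetases, 1 was lower, 0 were higher and 12 lay below 0, with a median of -0.23. Lars2, which charges leucine tRNA, had 46.8 and 68.8 CPM with NECA, against 141 and 84.9 CPM with DMSO. The groups did not overlap, and the DMSO libraries lay far apart. It fell by 0.97 on the log2 scale (SE 0.20, edgeR's adjusted p = 0.0411). Without DMSO replicate 1 its value was -0.56 (adjusted p = 0.134), with RLE size factors its adjusted p was 0.053, and DESeq2 gave 0.374.

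Of the 10 genes of mitochondrial DNA transcription and copying 0 were called, and the median was -0.12. Polg, the polymerase that copies mitochondrial DNA, had 176 and 176 CPM with NECA, against 167 and 158 CPM with DMSO (log2 fold change 0.11, adjusted p = 0.4), and Mterf1a, nearly identical to Mterf1b, stood at -0.36 (adjusted p = 0.633). Among 8 tested regulators, Myc, a growth factor-responsive transcription factor, had 19 and 9 counts with NECA, against 50 and 97 counts with DMSO. It fell by 2.23 on the log2 scale (SE 0.46, edgeR's adjusted p = 0.0409). With DMSO replicate 2 left out it stood at -1.67 (adjusted p = 0.216) and did not pass. Nrf1 (0.12, adjusted p = 0.565), Gabpa (-0.10, adjusted p = 0.645) and Ppargc1a, a coactivator with 0 counts in every library, also belong to the list. They were picked after their values were seen and do not stand for the rest of it. Of the 8 tested regulators, 5 lay below 0 and 3 above. Their lower quartile was -1.45, so Myc was not the only one far below 0. By edgeR, 2 had an unadjusted p under 0.05 (25%, beside 15.7% of all genes tested), both lower and Myc among them.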

How the data were processed

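Per the file headers, the authors deposited raw counts of reads and FPKM for every Ensembl gene, 1 table per library. The submitters' processing notes list HISAT, StringTie and edgeR. Which program counted reads, with which annotation and strand setting, is not given in the sources used here. The deposited FPKM were the same counts divided by 1 length per gene and 1 scale per library (largest relative departure 4.65e-09 over 9004 genes).

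Counts were fitted in R 4.3.3 with edgeR 4.0.16: filterByExpr (minimum count 10), TMM, glmQLFit and glmQLFTest, NECA against DMSO, 2 libraries each, with no replicate block, and Benjamini-Hochberg adjustment over all 13083 genes tested (threshold 0.05). CPM use TMM-scaled library sizes. A standard error is the fold change over the square root of F. DESeq2 1.42.0 and limma 3.58.1 were alternatives. The test was checked on simulated data, with changes planted in genes of at least 5 CPM. It recovered 55.2% of 1.5-fold, 89.6% of 2-fold and 100% of 3-fold changes. Smaller changes and rarer genes were not covered by this check. The genes it drew from were mostly abundant, with 6279 at 15 CPM or more and 2281 at 5 to 15 CPM. Of the members, 21 and 36 lay in these ranges, so recovery among them may be lower. Replicates were not copies of each other (chi-square per degree of freedom 5.24 for NECA and 6.74 for DMSO).

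Positions and exon overlaps are from GENCODE M21 (GRCm38), near-identical copies from BLAST of its transcripts (at least 200 bases at 98% identity). Named were the genes called, the 5 largest and 5 smallest fold changes per subunit at a mean of at least 5 CPM, the 5 highest and 3 lowest mean FPKM per subunit, Mrps30, Mrps18a, Mrps18b, Mrps18c, Mrps36, Mrpl12 and Mrpl58, and in each partner list the genes called or else the 2 smallest p-values. Mrpl45, Mrpl46, Mrps11 and the neighbours of members were added for their position or promoter. Mrpl11, Mrps2, Mrps28, Nrf1, Gabpa, Ppargc1a and Mpo fall outside this rule and were chosen after their values were seen. Members and lists were chosen with earlier results of these data known.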

Additional observations from a re-analysis of the deposited data

How the results depend on the processing

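The number of large subunit genes lower with NECA was 2 without a filter on low counts (Mrpl52 and Mrpl54), 0 with each of the 3 limma fits on FPKM, and 0 to 1 when 1 library was left out. The number higher, and both numbers for the small subunit, were 0 in every alternative run. Over all genes, higher and lower counts were 21 and 217 with library size alone, 285 and 590 without a filter, 1 and 0 with limma at either pseudocount (0.1 or 1), and 0 and 0 with limma without a filter. DESeq2 gave 150 higher, and 53.4% of its calls were higher against 26.4%. Leaving out 1 library gave 23 to 230 higher and 86 to 560 lower genes; the fewest came when DMSO replicate 1 was dropped and the most when NECA replicate 1 was, and dropping NECA replicate 2 gave 122 and 196. The large subunit median ran from -0.11 to -0.0174 over the libraries left out and was -0.14 with library size alone, which moved the median of all genes to -0.08. With a library left out, its group is 1 library that is assumed to vary like the other group. Relative to all genes, the small subunit median stood at -0.18 with TMM and -0.18 with library size alone, and at -0.09 without DMSO replicate 2.

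Mrpl52 kept its direction in all 12 alternatives run, with adjusted p from 7.7e-06 to 0.435. Several genes changed sign, none of them called; most lay near 0, but Mrpl47 (-0.37), Mrps18b (-0.34) and Mrps36 (-0.26) did not. With library size alone Mrpl10 (-0.0206), Mrpl43 (-0.0691), Mrps15 (-0.0181) and Mrps30 (-0.0626) did, and Mrpl34 stood at 0.0028 with RLE, 0.0054 with DESeq2 and 0.0001 with limma at a pseudocount of 1. Over the libraries left out the ranges were -0.0335 to 0.13 for Mrpl10, -0.40 to 0.30 for Mrpl12, -0.27 to 0.16 for Mrpl14, -0.0079 to 0.19 for Mrpl18, -0.11 to 0.11 for Mrpl34, -0.14 to 0.15 for Mrpl43, -0.98 to 0.094 for Mrpl47, -0.0045 to 0.29 for Mrpl48, -0.31 to 0.28 for Mrps10, -0.28 to 0.22 for Mrps12, -0.15 to 0.25 for Mrps15, -0.75 to 0.23 for Mrps18b, -0.21 to 0.0205 for Mrps18c, -0.26 to 0.0755 for Mrps21, -0.26 to 0.015 for Mrps23, -0.40 to 0.24 for Mrps25, -0.20 to 0.21 for Mrps30, -0.10 to 0.0028 for Mrps35, -0.58 to 0.13 for Mrps36 and -0.0909 to 0.29 for mt-Rnr1. The cause of these changes was not tested. Depth limits the 19 members under 5 CPM, whose median standard error was 0.34.

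With the replicate number as a block, 123 genes were higher and 298 lower, and of the members Mrpl52 alone was called (adjusted p = 0.012). Deviations of same-numbered libraries correlated at r = 0.02, so the numbers are not shown to pair the libraries.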
